A study of Mus musculus with 15 samples.

Results

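The mitochondrial carrier genes were examined in the livers of 15 mice under 5 diets. They were taken as every gene whose symbol in the platform annotation began with Slc25a, leaving out Slc25a13 and Slc25a15. The arrays measured 42 such carriers among 18193 genes with a single symbol, on 90 probe sets. Of the 42 carriers, 20 had 1 probe set and 22 had several, and 1 further probe set shared by Slc25a37 and a second symbol was not used. All mice were male C57BL/6 (C57BL/6J in the growth notes), were 7 weeks old at the start and ate and drank freely for 9 weeks. The normal diet group (ND) had 10% of dietary energy from fat, and the high-fat group (HF) had 60%. The remaining groups received the high-fat diet with 2% caffeinated coffee (HFCC), 2% decaffeinated coffee (HFDC) or 2% unroasted green coffee (HFGC), so the coffee groups and HF share the high-fat diet. Each group had 3 mice, with 1 array for each mouse, and the deposited intensities are given here as log2 values. A difference is a log2 difference between group means with its standard error (SE) from limma, and a carrier was called at an adjusted p under 0.05 over all 18193 genes. In whole liver, fewer cells of a type and less RNA per cell cannot be told apart.

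Members of the mitochondrial carrier family sit mostly in the inner mitochondrial membrane, where each moves a small set of metabolites, nucleotides, cofactors or metals between the cytosol and the matrix. They link cytosolic and mitochondrial steps of metabolism, among them citrate export for fatty acid synthesis, acylcarnitine import for fatty acid oxidation, redox shuttles and exchange of ATP for ADP. In the liver they also serve amino acid breakdown, gluconeogenesis, and heme and iron-sulfur cluster synthesis. Most of these proteins exchange one substrate for another, so a transcript level says nothing by itself about the direction or rate of transport.

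Promoter sequences are shown for some of the called carriers, namely Slc25a10, Slc25a16, Slc25a25 and Slc25a30. Slc25a42, called in 3 comparisons, and Slc25a12, called in 2, are not shown. They come from RefSeq on GRCm38.p6, run 5′ to 3′ on the strand of the gene, and cover 250 bases before to 50 bases after an annotated start. Capitals mark matches to any of several short motifs, searched on both strands, so that the reverse complement is marked too. The first is CCAAT, the CCAAT box, and another is GGGCGG, known as the GC box. A nuclear receptor half-site, AGGTCA, was also searched, and so was TGACG, which lies within the palindrome TGACGTCA, the cyclic AMP response element. The regions are chr11:120491587-120491886 (plus strand) for Slc25a10, chr10:62920383-62920682 (plus strand) for Slc25a16, chr14:75786988-75787287 (minus strand) for Slc25a30, and chr2:32451421-32451720 and chr2:32424017-32424316 (both minus strand) for the first and the last of the 3 starts listed for Slc25a25.
Slc25a10: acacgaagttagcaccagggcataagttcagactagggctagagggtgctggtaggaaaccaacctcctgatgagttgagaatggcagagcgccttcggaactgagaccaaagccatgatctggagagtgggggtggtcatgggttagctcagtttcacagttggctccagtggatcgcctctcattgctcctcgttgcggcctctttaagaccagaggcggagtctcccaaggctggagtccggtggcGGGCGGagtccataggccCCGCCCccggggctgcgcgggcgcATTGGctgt
Slc25a16: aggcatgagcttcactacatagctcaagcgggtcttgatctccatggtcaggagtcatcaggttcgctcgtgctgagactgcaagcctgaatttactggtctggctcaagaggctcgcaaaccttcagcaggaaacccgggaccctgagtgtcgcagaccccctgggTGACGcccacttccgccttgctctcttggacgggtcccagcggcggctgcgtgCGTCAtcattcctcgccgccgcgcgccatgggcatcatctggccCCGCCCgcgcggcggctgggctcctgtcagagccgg
Slc25a25, first start: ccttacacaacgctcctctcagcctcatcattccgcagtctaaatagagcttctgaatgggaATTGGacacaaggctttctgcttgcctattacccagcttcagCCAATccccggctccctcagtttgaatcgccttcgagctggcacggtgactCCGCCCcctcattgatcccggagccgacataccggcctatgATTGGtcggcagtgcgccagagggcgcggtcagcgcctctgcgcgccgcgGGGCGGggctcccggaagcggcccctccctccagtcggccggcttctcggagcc
Slc25a25, last start: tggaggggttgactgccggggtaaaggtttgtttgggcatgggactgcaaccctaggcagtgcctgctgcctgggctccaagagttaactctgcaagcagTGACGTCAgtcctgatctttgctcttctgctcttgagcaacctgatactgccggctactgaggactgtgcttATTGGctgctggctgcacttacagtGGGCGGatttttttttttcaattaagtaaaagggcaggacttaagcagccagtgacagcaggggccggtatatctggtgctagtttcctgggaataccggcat
Slc25a30: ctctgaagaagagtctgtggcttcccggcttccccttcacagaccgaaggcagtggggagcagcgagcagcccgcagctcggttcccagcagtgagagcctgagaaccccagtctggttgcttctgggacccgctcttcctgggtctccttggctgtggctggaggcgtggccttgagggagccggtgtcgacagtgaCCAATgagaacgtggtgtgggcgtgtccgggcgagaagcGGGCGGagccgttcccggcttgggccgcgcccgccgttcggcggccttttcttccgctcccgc

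The last start of Slc25a25 holds the complete TGACGTCA, whereas the printed promoter of Slc25a16 holds a separate TGACG in each orientation. Promoter entries existed for 32 of the 42 carriers, 40 entries in all. GGGCGG, the GC box, was found in 87.5% of the carrier entries and in 35.7% of all 32851 promoters of the same length. CCAAT was found in 20 of the 40 carrier entries against 37.4% of all promoters. TGACG was in 12 of the 40 against 20.8%, AGGTCA in 4 of the 40 against 16.3%, and 2 of the 40 entries held TGACGTCA, against 1.79% of all promoters. A match describes the letters in the window, and which start gave the measured RNA is not known from the arrays.

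The arrays differed little in median intensity (48.45 to 49.95), and the hepatocyte markers Alb, Ttr, Apoa1 and Cyp2e1 summed to between 88011 and 92076 on every array, with 0 of the 4 called in any comparison. The signal at the 3′ end minus that at the 5′ end of Gapdh and Actb, a log2 measure that rises as RNA is shortened, was 1.22 ± 0.17 (SD, n = 3) in HF and 0.88 ± 0.06 in ND. It was 0.93 ± 0.12 in HFCC, 0.93 ± 0.11 in HFDC and 0.82 ± 0.11 in HFGC, and HF replicate 2 gave the top value of all arrays, 1.40. This measure therefore moved with the HF group and so with each comparison that uses HF. In HF against ND, 2 of 5 stellate cell markers were called higher (Col3a1 and Reln; list median 0.27), 1 of 4 endothelial markers (Stab2, 0.49; Lyve1 -0.58 and Pecam1 -0.09 were not called; list median -0.04), and 1 of 3 erythroid markers (Alas2, 0.43; Hba-a1 -0.06). Of 3 muscle genes, Ckm was called lower. Stab2 and Ckm were called in the opposite directions when the coffee groups were set together against HF. In that comparison Stab2 was the only endothelial marker called, while 3 of 4 were above 0 (list median 0.15). The muscle list median was 0.04. Against ND, the coffee groups together had Col3a1 called higher (0.48), 1 of 5 stellate markers, 4 of them above 0. The part of these in the carrier results was not tested.

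Individual carriers were higher or lower in HF than in ND. Of the 42 carriers, 10 differed between HF and ND at an adjusted p under 0.05, where 13.5% of all genes did. Higher in HF were 7 carriers (all genes, 8.92%), namely Slc25a1, Slc25a10, Slc25a25, Slc25a28, Slc25a30, Slc25a33 and Slc25a42. Lower in HF were 3 (all genes, 4.63%), namely Slc25a12, Slc25a16 and Slc25a27. The median difference was 0.01 over the carriers and -0.0015 over all genes, and the median absolute difference was 0.17 against 0.12. At an unadjusted p under 0.05 the count was 18 carriers, where 28.8% of all genes passed. The count of 10 fell to 1 without HF replicate 2, to 2 without HF replicate 3, to 4 without ND replicate 3 and to 6 without ND replicate 2. All-gene counts of these fits are not given here, so the drop cannot be read as particular to the carriers. Adding the 3′ minus 5′ measure to the fit left 1 carrier, Slc25a25, and 14 of all genes.

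Coffee gave fewer calls, and all of these comparisons share the 3 HF arrays. No carrier was called in HFCC against HF, where 1.64% of all genes were called and 11 carriers had an unadjusted p under 0.05 (all genes, 18.4%). In HFDC, Slc25a10 and Slc25a23 were lower than in HF, 2 of 42 carriers where 5.02% of all genes were called in either direction and 3.70% lower. In HFGC, Slc25a10 and Slc25a42 were lower, 2 of 42 where 3.09% of all genes were called in either direction and 2.31% lower. At an unadjusted p under 0.05 there were 11 carriers in HFDC (all genes, 22.7%) and 12 in HFGC (all genes, 20.6%). These shares were near those of all genes. With the 9 coffee arrays together against HF, 6 carriers were called where 10.3% of all genes were, Slc25a16 and Slc25a29 higher (all genes, 3.39%) and Slc25a10, Slc25a20, Slc25a39 and Slc25a42 lower (all genes, 6.88%). Without adjustment 14 carriers passed (all genes, 25.5%). The median difference over the carriers was -0.04 and over all genes 0.01. That count was 0 without HF replicate 2 or without HF replicate 3, where 4 and 64 of all genes were called, and 2 without HFCC replicate 3. Adding the 3′ minus 5′ measure to the fit left 0 of the carriers and 0 of all genes.

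**Figure D1:**
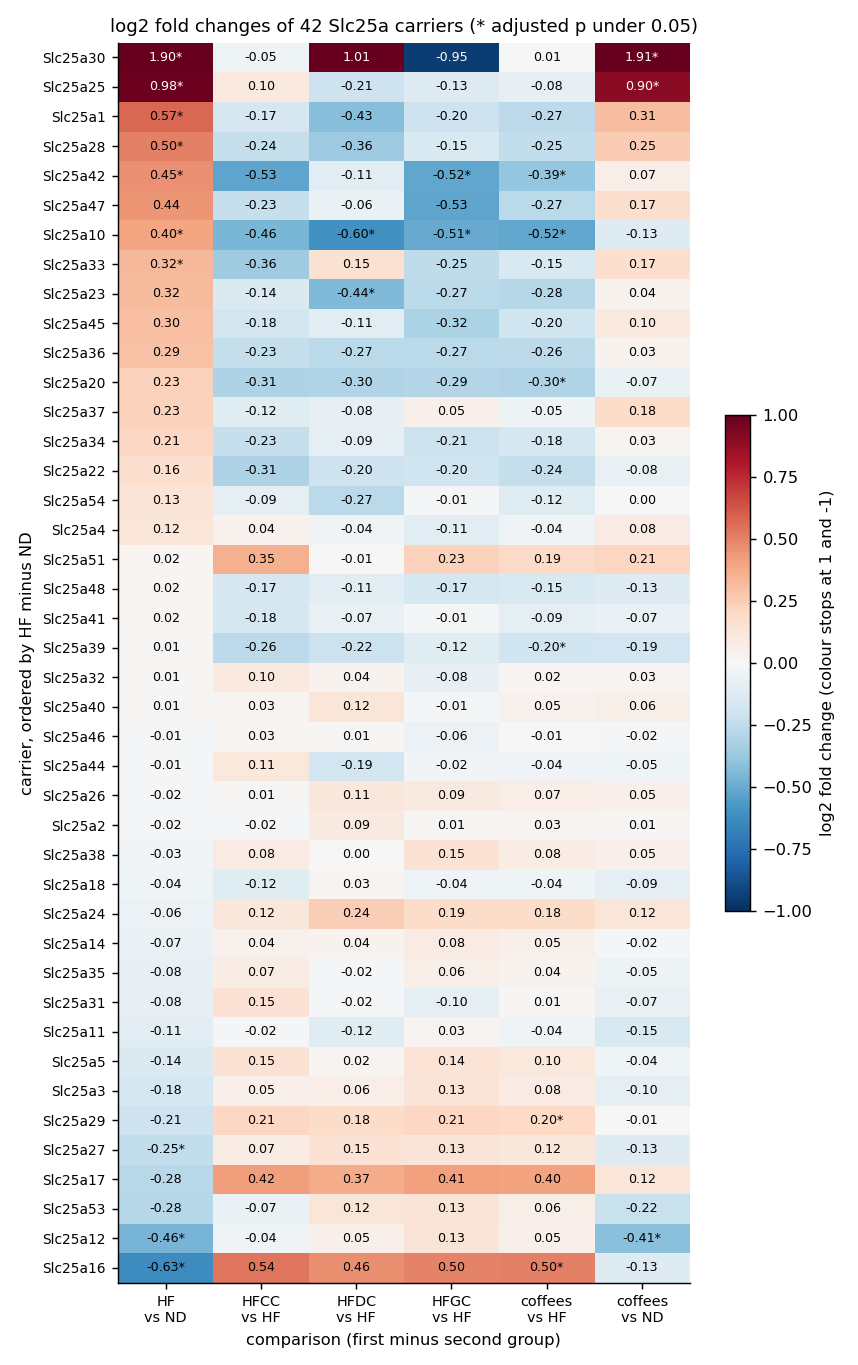
Log2 fold changes of the 42 carriers (vertical axis, ordered by HF minus ND) in 6 comparisons (horizontal axis), the first group minus the second, with stars at an adjusted p under 0.05 from limma and colours that stop at 1 and -1. Slc25a30 (1.90) and Slc25a25 (0.98) head the HF against ND column and stay at 1.91 and 0.90 with the coffee groups against ND, whereas Slc25a10 and Slc25a16 return toward the ND level.

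**Figure D2:**
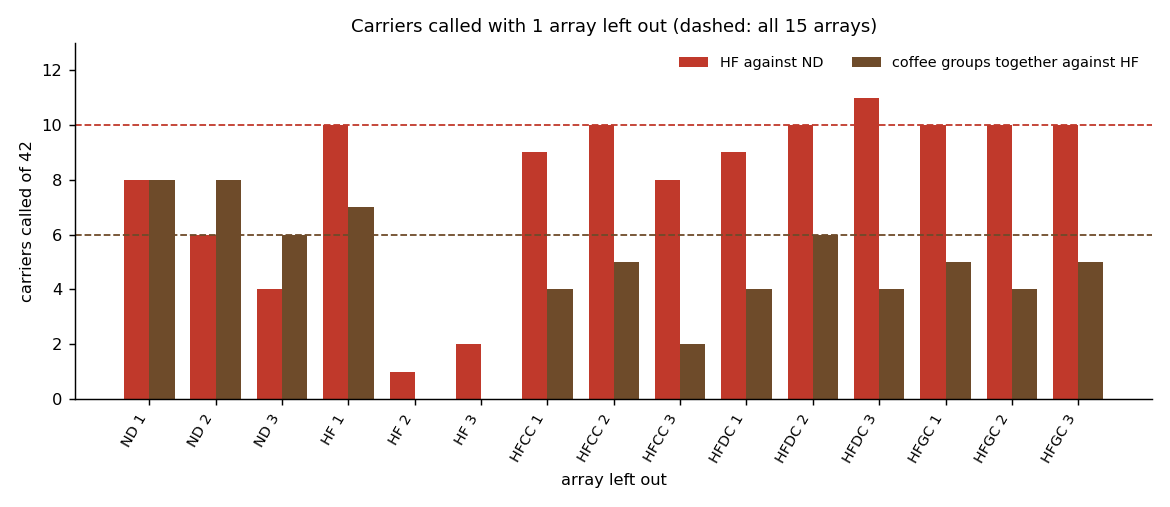
Number of the 42 carriers called (vertical axis) with each array left out in turn (horizontal axis), for HF against ND and for the coffee groups together against HF, with dashed lines at the counts from all 15 arrays, 10 and 6. Leaving out HF replicate 2 or 3 takes HF against ND to 1 or 2 and the coffee groups against HF to 0.

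Among the carriers of di- and tricarboxylates, 2 of 3 measured members rose in HF (all genes, 8.92%) and 1 of 3 fell with the coffee groups together against HF (all genes, 6.88%), counts too small to describe the class. Slc25a10, the dicarboxylate carrier, which exchanges malate or succinate for phosphate, read 10.35, 10.49 and 10.08 in ND, 10.51, 10.83 and 10.78 in HF, 10.18, 10.38 and 10.18 in HFCC, 10.13, 10.26 and 9.91 in HFDC, and 10.07, 10.19 and 10.34 in HFGC. All HF arrays lay above all ND arrays and above all 9 coffee arrays, and the coffee arrays overlapped those of ND. The rise in HF was 0.40 (SE 0.12, adjusted p = 0.043), and it was lost in 8 of 15 fits with 1 array left out, with cyclic loess, with an offset of 32, with the compared groups alone and with the 3′ minus 5′ covariate (0.42, adjusted p = 0.30). Against HF, Slc25a10 differed by -0.60 in HFDC (adjusted p = 0.025), by -0.51 in HFGC (adjusted p = 0.039) and by -0.46 in HFCC (adjusted p = 0.062). Over the coffee groups together the difference was -0.52 (SE 0.10, adjusted p = 0.0093), a 1.44-fold lower level, and against ND it was -0.13 (adjusted p = 0.53). A further probe set for Slc25a10 was called the same way in both comparisons, at 0.43 and -0.46. The HFDC call was lost in 4 of 15 such fits and the HFGC call in 6, and both were lost with the compared groups alone. The fall with the coffee groups together was kept in 13 of the 15 fits with 1 array left out. It was lost without HF replicate 2 (-0.46, adjusted p = 0.096) and without HF replicate 3. With the 3′ minus 5′ covariate it was -0.54 (adjusted p = 0.41).

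Slc25a1, the citrate carrier that supplies cytosolic acetyl-CoA for lipid synthesis, read 9.34, 9.05 and 8.81 in ND, 9.43, 9.81 and 9.69 in HF, 9.50, 9.43 and 9.50 in HFCC, 9.38, 9.04 and 9.22 in HFDC, and 9.22, 9.53 and 9.56 in HFGC. Every HF array was above every ND array, but the gap between HF replicate 1 and ND replicate 1 was small, and the coffee arrays overlapped both groups. Slc25a1 rose by 0.57 in HF (SE 0.13, adjusted p = 0.013, 1.49-fold). With the coffee groups together it was -0.27 relative to HF (adjusted p = 0.14) and 0.31 relative to ND (adjusted p = 0.13). The rise was not called without HF replicate 2 (0.49, adjusted p = 0.066), without HF replicate 3, without ND replicate 3 or with the compared groups alone. With the 3′ minus 5′ covariate it was 0.48 (adjusted p = 0.28). The oxoglutarate carrier Slc25a11, which serves the malate-aspartate shuttle, differed by -0.11 in HF and by -0.04 with the coffee groups together, and was called in no comparison.

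**Figure D3:**
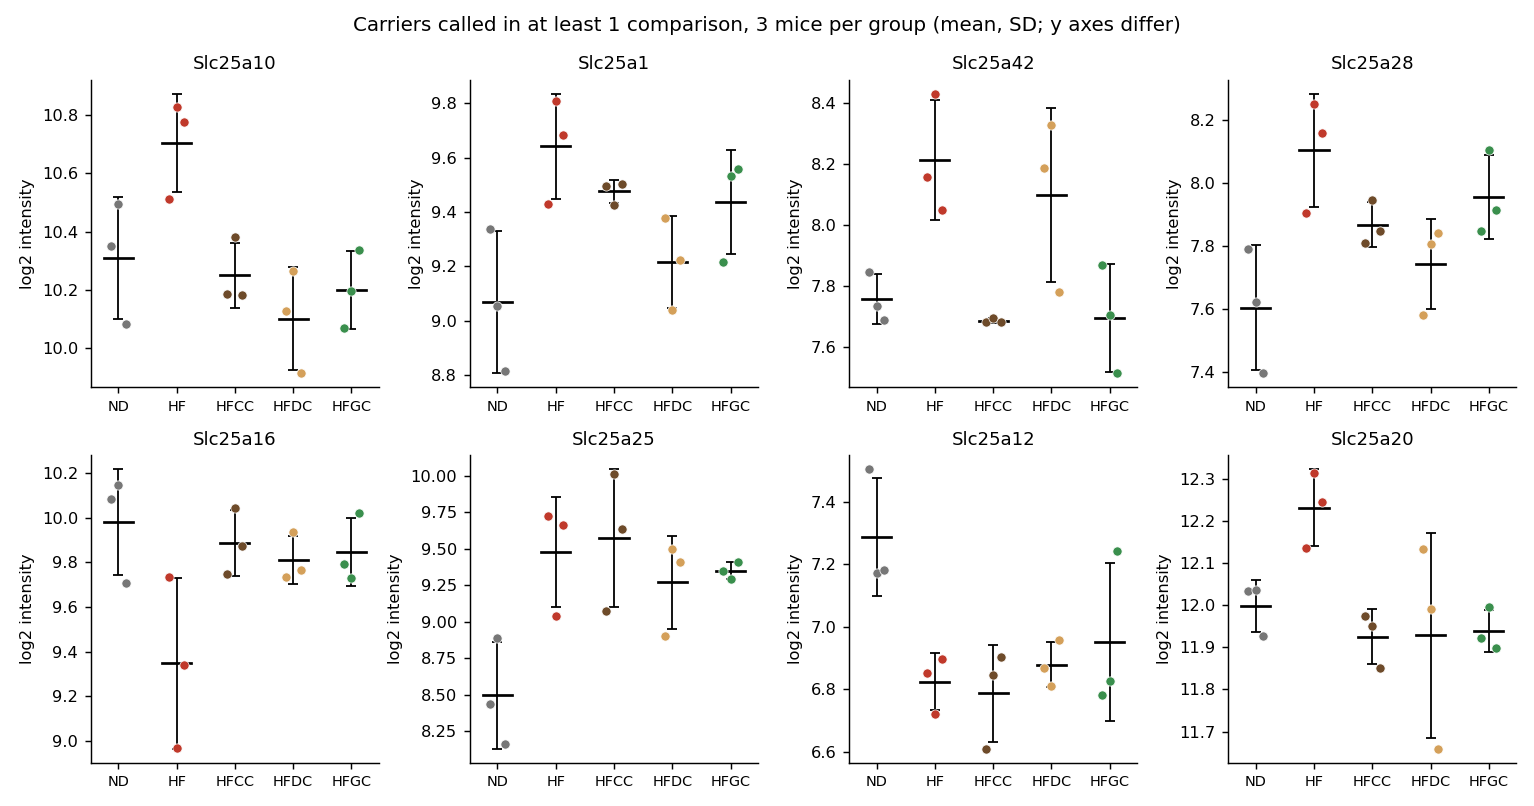
Log2 intensity (vertical axes, which differ between panels) of 8 carriers in the 5 diet groups (horizontal axis), with a point for each of 3 mice, a bar at the group mean and error bars of 1 SD. The HF points of Slc25a10 lie above those of every other group, the ND points of Slc25a25 lie below those of every other group, and the ND points of Slc25a12 lie above those of HF.

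The carriers of cofactors, nucleotides, glutathione and metals had 4 of 12 measured members called in HF against ND (all genes, 13.5%), 3 higher and 1 lower, and 3 of 12 called with the coffee groups together against HF (all genes, 10.3%), 1 higher and 2 lower. Slc25a42 imports coenzyme A into the matrix. It read 7.85, 7.74 and 7.69 in ND, 8.16, 8.43 and 8.05 in HF, 7.68, 7.70 and 7.68 in HFCC, 8.19, 8.33 and 7.78 in HFDC, and 7.87, 7.71 and 7.51 in HFGC. The HF arrays lay above all ND, HFCC and HFGC arrays, but the HFDC arrays overlapped those of HF. Slc25a42 rose by 0.45 in HF (SE 0.13, adjusted p = 0.032) and was lower in HFGC than in HF, with a difference of -0.52 (SE 0.13, adjusted p = 0.045). The difference from HF was -0.53 in HFCC (adjusted p = 0.053) and -0.11 in HFDC (adjusted p = 0.66), and the gap of 0.41 between HFDC and HFCC was not called (adjusted p = 0.38). Over the coffee groups together Slc25a42 was lower, at -0.39 relative to HF (adjusted p = 0.033), which was lost without HF replicate 2 (-0.28, adjusted p = 0.24), HF replicate 3 or HFCC replicate 3. Its HFGC call was lost in 10 of 15 fits with 1 array left out, and its rise in HF without ND replicate 2, ND replicate 3 or HF replicate 2. Averaged probe sets and cyclic loess each lost these calls and that of the coffee groups together. The compared groups alone lost the HFGC call and the rise in HF. With the 3′ minus 5′ covariate the differences were 0.22 for HF against ND, -0.24 for HFGC against HF and -0.16 with the coffee groups together, none of them called. A second, dimmer probe set for Slc25a42 gave -0.03 in HF against ND and 0.03 with the coffee groups together, neither called.

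Slc25a16, a carrier linked to coenzyme A transport, ran the other way. It read 10.08, 10.14 and 9.71 in ND, 9.74, 8.97 and 9.34 in HF, 9.75, 10.04 and 9.87 in HFCC, 9.73, 9.93 and 9.77 in HFDC, and 9.79, 9.73 and 10.02 in HFGC. HF replicates 2 and 3 were lower than every other array, whereas HF replicate 1 lay within the range of ND and of the coffee groups. Slc25a16 fell by 0.63 in HF (SE 0.16, adjusted p = 0.019, 1.55-fold lower) and was higher by 0.50 with the coffee groups together than in HF (SE 0.13, adjusted p = 0.028). The fall in HF was lost without ND replicate 1, ND replicate 2, HF replicate 2 or HF replicate 3, and with the compared groups alone. The coffee call was lost without HF replicate 2 (0.31, adjusted p = 0.23) or HF replicate 3, and with the 3′ minus 5′ covariate the estimate turned to -0.0087 (adjusted p = 0.99). HF against ND with that covariate was -0.09 (adjusted p = 0.81), and HF replicate 2 had both the lowest Slc25a16 value and the top 3′ minus 5′ value. Slc25a17, a peroxisomal carrier of coenzyme A and related cofactors, was 0.40 higher with the coffee groups together than in HF without passing the test (adjusted p = 0.090), and with the covariate its estimate turned to -0.12 (adjusted p = 0.82).

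Slc25a28, known as mitoferrin 2, takes iron into mitochondria. It read 7.79, 7.62 and 7.40 in ND, 7.90, 8.25 and 8.16 in HF, 7.81, 7.95 and 7.85 in HFCC, 7.58, 7.81 and 7.84 in HFDC, and 7.85, 8.10 and 7.91 in HFGC. All HF arrays were above all ND arrays, the HFCC and HFGC arrays overlapped those of HF, and the HFDC arrays were below them. The rise of Slc25a28 in HF was 0.50 (SE 0.11, adjusted p = 0.012), and it was kept in 14 of 15 fits with 1 array left out, being lost without HF replicate 2 (0.43, adjusted p = 0.059). It was also lost with the compared groups alone and with the 3′ minus 5′ covariate (0.52, adjusted p = 0.19). The other mitoferrin, Slc25a37, differed by 0.23 in HF and was not called.

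Slc25a33, a pyrimidine nucleotide carrier, was among the 5 carriers called by the test for any difference among the 5 groups (adjusted p = 0.015), where 7.27% of all genes were called. It read 8.41, 8.48 and 8.44 in ND, 8.69, 8.78 and 8.85 in HF, 8.27, 8.39 and 8.59 in HFCC, 8.83, 9.11 and 8.82 in HFDC, and 8.60, 8.44 and 8.50 in HFGC. The HF and HFDC arrays were above all ND, HFCC and HFGC arrays. Slc25a33 rose in HF by 0.32 (SE 0.09, adjusted p = 0.033), which was lost without any 1 of the 3 ND arrays, without HF replicate 2 or without HF replicate 3. This rise was also lost with cyclic loess and with the compared groups alone. With the 3′ minus 5′ covariate the rise was 0.42 (adjusted p = 0.18). HFDC exceeded HFCC by 0.50 (SE 0.09, adjusted p = 0.061) and HFGC was -0.40 relative to HFDC (adjusted p = 0.21). The first of these was called (1 carrier) when genes dimmer than the median gene were left out. Its relative Slc25a36, also a pyrimidine nucleotide carrier, was 0.29 in HF against ND (adjusted p = 0.075) and -0.26 with the coffee groups together (adjusted p = 0.063), or 0.11 and -0.09 with the covariate.

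Slc25a39, a mitochondrial glutathione carrier, did not differ in HF (0.01) but was lower with the coffee groups together than in HF, with a difference of -0.20 (SE 0.06, adjusted p = 0.040). It read 10.29, 10.40 and 10.32 in HF and between 10.03 and 10.36 in the coffee groups, where HFGC replicate 3 reached into the HF range. A second of its 5 probe sets was called at -0.20 and the remaining 3 lay between -0.20 and -0.14. The call was lost in 10 of 15 fits with 1 array left out. With the 3′ minus 5′ covariate the difference of Slc25a39 was -0.26 (adjusted p = 0.42). Slc25a40, its close relative, differed by 0.05.

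Of the 8 adenine nucleotide and phosphate carriers, 1 rose in HF (all genes, 8.92%), a count too small to describe the class. Slc25a25, a calcium-regulated carrier that exchanges ATP-Mg for phosphate, read 8.44, 8.88 and 8.16 in ND, 9.72, 9.04 and 9.66 in HF, 9.07, 10.01 and 9.63 in HFCC, 8.90, 9.50 and 9.41 in HFDC, and 9.35, 9.29 and 9.41 in HFGC. Every HF, HFCC, HFDC and HFGC array was above every ND array, although HFDC replicate 1 (8.90) barely cleared ND replicate 2 (8.88). Slc25a25 rose by 0.98 in HF (SE 0.24, adjusted p = 0.015, 1.97-fold) and was 0.90 higher with the coffee groups together than in ND (SE 0.19, adjusted p = 0.019). Against HF the coffee groups together differed by -0.08 (adjusted p = 0.86). A second probe set gave 0.96 in HF and was called, and the remaining one gave -0.08. The rise in HF was lost without ND replicate 3 or HF replicate 3 (adjusted p up to 0.066), and the difference from ND with coffee without ND replicate 1 or ND replicate 3 (adjusted p up to 0.10). With the 3′ minus 5′ covariate, Slc25a25 was still called in HF against ND, at 1.78 (adjusted p = 0.013).

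Slc25a23, another ATP-Mg and phosphate carrier, read 9.04, 9.36 and 9.39 in HF and 8.76, 9.00 and 8.73 in HFDC. The HFDC arrays were all below the HF arrays, by a narrow margin between the closest pair. The difference was -0.44 (SE 0.11, adjusted p = 0.035) and was lost without HF replicate 2, HF replicate 3 or any 1 of the 3 HFDC arrays. It was also lost with cyclic loess and with the compared groups alone. With the 3′ minus 5′ covariate it was -0.43 (adjusted p = 0.32). Slc25a3, the phosphate carrier, and Slc25a5, an ADP/ATP carrier, differed by -0.18 and -0.14 in HF and were called in no comparison. Slc25a4, the other main ADP/ATP carrier, gave 0.12 in HF on its brightest probe set, whereas 1 of its 4 probe sets was called at 0.41.

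Among the 9 carriers of amino acids, acylcarnitine and choline, 1 fell in HF (all genes, 4.63%), again too few to describe the class. Slc25a12, an aspartate-glutamate carrier of the malate-aspartate shuttle, read 7.50, 7.17 and 7.18 in ND, 6.85, 6.72 and 6.90 in HF, 6.61, 6.85 and 6.90 in HFCC, 6.87, 6.81 and 6.96 in HFDC, and 6.78, 6.83 and 7.24 in HFGC. The ND arrays were above all HF, HFCC and HFDC arrays, and only HFGC replicate 3 reached into their range. Slc25a12 fell by 0.46 in HF (SE 0.12, adjusted p = 0.023, 1.38-fold lower) and was also lower with the coffee groups together than in ND, with a difference of -0.41 (SE 0.10, adjusted p = 0.031). Its other 2 probe sets gave -0.10 and 0.07 in HF against ND, neither called. The fall in HF was lost without ND replicate 1, HF replicate 2 or HF replicate 3, and the difference with coffee was lost in 5 of 15 fits. Averaged probe sets lost both calls, and the compared groups alone lost the fall in HF. With the 3′ minus 5′ covariate the HF difference was -0.14 (adjusted p = 0.68), and the difference of the coffee groups from ND was -0.40 (adjusted p = 0.016).

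Slc25a20, the carnitine-acylcarnitine carrier of fatty acid oxidation, read 12.03, 12.04 and 11.93 in ND, 12.14, 12.32 and 12.25 in HF, 11.97, 11.95 and 11.85 in HFCC, 12.13, 11.99 and 11.66 in HFDC, and 11.92, 12.00 and 11.90 in HFGC. The HF arrays were above all others, though HFDC replicate 1 nearly touched HF replicate 1. Between HF (mean 12.23) and ND (mean 12.00) the difference was not called. Slc25a20 was lower with the coffee groups together than in HF, with a difference of -0.30 (SE 0.08, adjusted p = 0.030), and this was lost without HF replicate 2, HF replicate 3 or HFCC replicate 3. It was -0.12 with the 3′ minus 5′ covariate (adjusted p = 0.73). A second probe set gave -0.06 with the coffee groups together against HF and was not called. Its mean was 10.75 in HF and 10.82 in ND.

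Slc25a29, a carrier of basic amino acids, was 0.20 higher with the coffee groups together than in HF (SE 0.06, adjusted p = 0.041). It read 6.83, 6.97 and 7.00 in HF and between 7.03 and 7.23 in the coffee groups, with no overlap, and with the 3′ minus 5′ covariate the difference was 0.31 (adjusted p = 0.41). Its other 4 probe sets lay between -0.13 and 0.11 and were not called, and the call was lost in 10 of 15 fits. Slc25a22, a glutamate carrier, was -0.24 with the coffee groups together (adjusted p = 0.093). Slc25a44, which takes up branched-chain amino acids, differed by -0.01 in HF on its brightest probe set, whereas another of its 3 probe sets was called at -0.43.

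Of the 10 uncoupling-protein-like carriers and carriers without a settled substrate, 1 rose (all genes, 8.92%) and 1 fell (all genes, 4.63%) in HF. Slc25a30, an uncoupling-protein-like carrier first described in kidney, had the largest difference of the 42. It read 7.48, 7.46 and 7.33 in ND, 8.66, 10.04 and 9.28 in HF, 9.34, 9.85 and 8.66 in HFCC, 9.61, 11.45 and 9.96 in HFDC, and 9.34, 8.44 and 7.36 in HFGC. The ND arrays were tightly grouped and below all HF, HFCC and HFDC arrays, whereas the HFGC arrays ran from the ND level to the middle of the HF range. Slc25a30 rose by 1.90 in HF (SE 0.50, adjusted p = 0.023), a 3.74-fold difference, and was 1.91 higher with the coffee groups together than in ND (SE 0.41, adjusted p = 0.018). Against HF, the coffee groups together differed by 0.01.

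The spread of Slc25a30 within groups (pooled SD 0.75 on the log2 scale) was the widest of the carriers, whose median SD was 0.13 against 0.11 for all genes, and 0.148% of all genes had an SD at or above it. HFGC was -1.96 relative to HFDC (SE 0.50, adjusted p = 0.31), HFDC was 1.06 above HFCC (adjusted p = 0.63), and HFGC was -0.90 relative to HFCC. These gaps did not pass the test, and the 95% interval of the widest ran from -3.03 to -0.89 before adjustment for the number of genes. The rise in HF was lost without HF replicate 2 (1.55, adjusted p = 0.11), HF replicate 3, ND replicate 2 or ND replicate 3, and the difference from ND with coffee without ND replicate 1 or ND replicate 3. With the 3′ minus 5′ covariate the values were 1.19 (adjusted p = 0.45) and 1.87 (adjusted p = 0.019). Both calls were lost with trend and robust eBayes, and the rise in HF also with averaged probe sets.

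Slc25a30 had 5 probe sets, named by their Affymetrix identifiers. In HF against ND, 1420836_at gave 1.90, 1450018_s_at gave 2.25 (both called) and 1420835_at gave 1.11 (adjusted p = 0.10). With the coffee groups together against ND these 3 were all called, at 1.91, 1.95 and 1.48. The order of mice was alike on them, since HFDC replicate 2 was highest and HFGC replicate 3 lowest among the high-fat mice on each. The dim 1425948_a_at and 1425949_at gave 0.08 and -0.06 in HF against ND.

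**Figure D4:**
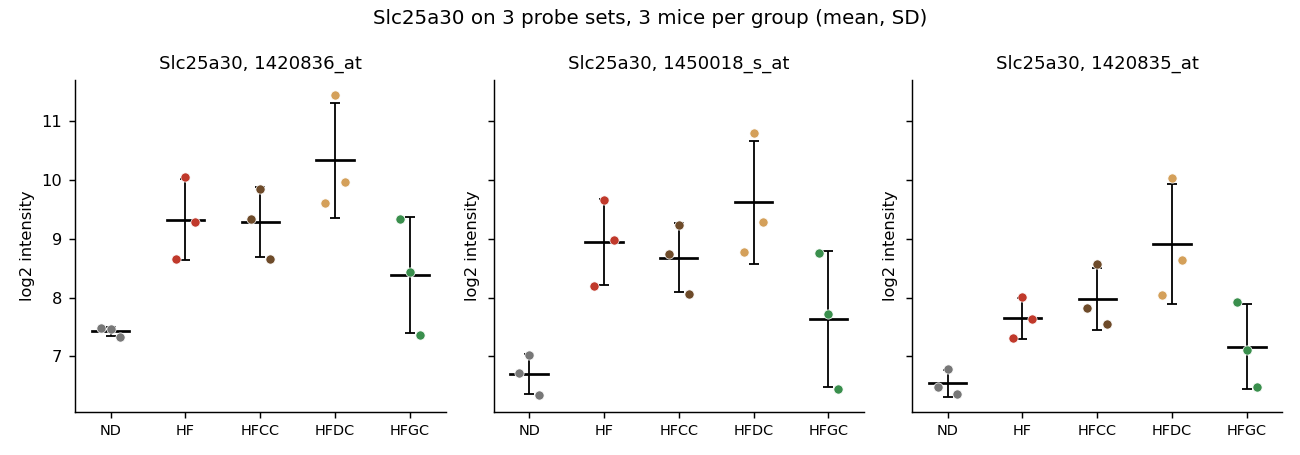
Log2 intensity of Slc25a30 (vertical axis) on 3 probe sets in the 5 diet groups (horizontal axis), with a point for each of 3 mice, a bar at the group mean and error bars of 1 SD. On 1420836_at the ND mice sit between 7.33 and 7.48, the HF mice between 8.66 and 10.04, and the HFGC mice spread from 7.36 to 9.34.

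Slc25a27, an uncoupling-protein-like carrier known mainly from brain, fell by 0.25 in HF (SE 0.07, adjusted p = 0.037). It read 5.43, 5.36 and 5.43 in ND and 5.05, 5.20 and 5.24 in HF, without overlap, at a level below that of the median gene. Its other 3 probe sets lay between -0.03 and 0.09, and the call was lost in 7 of 15 fits. Averaged probe sets, cyclic loess and the compared groups alone each lost the call too. The difference was -0.37 with the 3′ minus 5′ covariate (adjusted p = 0.13). Slc25a14, the further uncoupling-protein-like member, differed by -0.07 in HF.

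In all, 14 of the 42 carriers were called in at least 1 of the 9 comparisons, where 19.9% of all genes were, and 28 in none. Of the uncalled carriers, the largest differences in HF against ND were 0.44 for Slc25a47 (adjusted p = 0.086), a liver carrier, 0.30 for Slc25a45 (adjusted p = 0.057), 0.29 for Slc25a36 and -0.28 for Slc25a53 (adjusted p = 0.084). With the coffee groups together against HF they were 0.40 for Slc25a17, -0.27 for Slc25a47 (adjusted p = 0.22), -0.26 for Slc25a36 and -0.24 for Slc25a22. Slc25a47 was 0.22 and -0.07 in these comparisons with the 3′ minus 5′ covariate. Called in both of these comparisons were 3 of the 42 carriers, where 5.67% of all genes were, namely Slc25a10 and Slc25a42 (higher in HF, lower with coffee) and Slc25a16 (lower in HF, higher with coffee). Since both comparisons use the same HF arrays, such opposite signs are not independent of each other.

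With the coffee groups together against ND, which uses no HF array but in which the stellate marker Col3a1 was also higher (list median 0.29), 3 carriers were called, Slc25a25 and Slc25a30 higher (all genes, 2.36%) and Slc25a12 lower (all genes, 1.73%), where 4.09% of all genes were called in either direction. Without adjustment 9 carriers passed (all genes, 19.5%). This count ranged from 0 to 4 with 1 array left out, and was 0 without ND replicate 1 or ND replicate 3. Between the coffees no carrier was called. At an unadjusted p under 0.05, 4 carriers differed between HFDC and HFCC (all genes, 7.97%; 0.0934% called), 1 between HFGC and HFCC (all genes, 2.55%; 0% called) and 6 between HFGC and HFDC (all genes, 6.74%; 0.0385% called).

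Genes that work beside the carriers were read from lists of their enzymes and of the import machinery, tested on all 15 arrays only. Their counts stand beside 13.5% of all genes called in HF against ND and 10.3% with the coffee groups together against HF. With the 3′ minus 5′ covariate, 14 of all genes were called in HF against ND and 0 with the coffee groups together against HF. None of the coffee calls of these lists was therefore kept with the covariate. Among family members under other symbols, Mtch1 rose by 0.32 and Mtch2, an outer membrane relative, fell by 0.37 in HF, while Ucp1 and Ucp3 were not called (-0.14 and 0.03). Of 6 shuttle enzymes, 1 changed in HF: Got1, the cytosolic aspartate aminotransferase, fell by 1.20 (SE 0.32, adjusted p = 0.024). With the coffee groups together against HF, 3 of these 6 fell, namely Got2 (-0.22), Mdh2 (-0.21) and Gpd1 (-0.41), while 2 were above 0 and uncalled. Got1 was among the latter, with means of 9.86 in HF, 10.65 in HFCC, 10.34 in HFDC and 10.71 in HFGC. Of 5 carnitine shuttle genes, 0 were called in HF against ND and 2 fell with coffee, namely Cpt2 (-0.24) and Crat, the carnitine acetyltransferase (-0.49). A further 2 of them were above 0 with coffee and uncalled. Of 6 enzymes that make or use exported citrate and pyruvate, 0 were called in HF against ND and 2 fell with coffee, namely Cs and Pcx (both -0.24). Only 1 of the 6 was above 0 with coffee, and it was uncalled. Medians for these last 3 lists with coffee were -0.22, -0.24 and -0.12, against 0.01 for all genes.

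Of 5 outer membrane channels and pyruvate carrier genes, Vdac2 fell by 0.33 in HF and Mpc1, a subunit of the mitochondrial pyruvate carrier, rose with coffee by 0.45 (SE 0.12, adjusted p = 0.026). Of 10 import genes, 4 were called in HF against ND (all genes, 13.5%), Timm50 (0.42) and Timm22 (0.31), which inserts carriers into the inner membrane, higher, and Timm10 (-0.31) and Tomm20 (-0.27) lower. Timm50 (-0.28) and Timm44 (-0.27) fell and Tomm20 (0.22) rose with the coffee groups together against HF (all genes, 10.3%). Of 7 genes of heme, iron-sulfur and glutathione synthesis, Gss, glutathione synthetase, rose by 0.41 in HF and fell by 0.26 with coffee, and the others were called in neither.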

How the data were processed

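Liver RNA of 15 mice was labelled with biotin and hybridised to Affymetrix Mouse Genome 430 2.0 arrays, 1 array per mouse and 3 per group, the groups taken from the labels. The authors made the deposited intensities with robust multi-array averaging (RMA) and gave them on a linear scale; the RMA software version is not given in the sources used here. They were used as they stood, after taking log2.

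Of 45101 probe sets, 64 were controls, 34945 had 1 symbol, 932 had several and 9224 had none or were not listed (controls included). Each gene was represented by its probe set with the highest mean, _x_at sets only where there was no other, and no filter on low values was used. Of the 42 carriers, 32 had a mean at or above that of the median gene.

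R 4.3.3 with limma 3.58.1 fitted 5 group means to all 15 arrays (10 residual degrees of freedom), and p-values were adjusted by Benjamini-Hochberg over all genes, two-sided. The procedure was tested on simulated data. An exact permutation test of 3 arrays against 3 cannot go below p = 0.1, so none is given, and the number of arrays limits the precision. The labels give separate mice, so p-values cover the spread between mice.

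The carriers and the lists were chosen with earlier results of these data known. Named are all carriers that were called and the 4 largest uncalled differences in HF against ND and with the coffee groups together. Some further uncalled carriers are named too. Of the lists of neighbouring genes, those called in HF against ND or with the coffee groups together against HF are named, with some uncalled ones. Values from every array are given for carriers called most often or with large differences.

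The alternatives tried were leaving out each array, the 3′ minus 5′ measure of Gapdh and Actb as a covariate, a replicate block, fits of the compared groups alone, eBayes with trend and robust, cyclic loess, an offset of 32, the mean of the probe sets of a gene, every probe set by itself, and leaving out genes dimmer than the median gene.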

Additional observations from a re-analysis of the deposited data

How the results depend on the processing

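In HF against ND, where 10 carriers were called, 6 were called when the probe sets of a gene were averaged. There were 2 with the compared groups alone and 1 with the 3′ minus 5′ covariate, while 13 were called among genes at or above the median level. That filter tested 32 of the 42 carriers and adjusted p-values over the kept genes only. The same holds for each count given with it below. For HFCC against HF (0), 4 were called among genes at or above the median level, 1 with an offset of 32, 1 with trend and robust eBayes, and 1 with the replicate number as a block. For HFDC against HF (2), 3 were called with that filter and 3 with an offset of 32, 1 was called with cyclic loess, 0 with the compared groups alone and 0 with the covariate. For HFGC against HF (2), 1 was called with averaged probe sets, 1 with cyclic loess, 0 with the compared groups alone and 0 with the covariate. With the coffee groups together against HF (6), 3 were called with averaged probe sets and 0 with the covariate, under which Slc25a16 turned to -0.0087 and the uncalled Slc25a17 to -0.12, while 8 were called with that filter and 8 with the compared groups alone. For HFDC against HFCC (0), 1 was called among genes at or above the median level. For any difference among the groups (5), 8 were called among genes at or above the median level, 3 with trend and robust eBayes and 2 with the covariate. The cause was not tested. With the covariate, 14 of all genes were called in HF against ND, and 0 in HFDC against HF, HFGC against HF and the coffee groups together against HF. Most carrier counts in this section are not set beside all-gene counts, so a shift in them cannot be read as particular to the carriers. With each array left out in turn, the counts ran from 1 to 11 for HF against ND, 0 to 5 for HFCC against HF, 0 to 5 for HFDC against HF, 0 to 4 for HFGC against HF, 0 to 8 for the coffee groups together against HF, 0 to 4 for them against ND, 0 to 1 for HFDC against HFCC and 1 to 9 for any difference, and stayed at 0 for the other pairs of coffees. Arrays with the same replicate number showed little tendency to deviate together (r from -0.28 to 0.23, 6 of 30 pairs over 0.1). Of 15 arrays, 6 correlated best with an array of their own number. No clear pairing of mice by number was seen, but this check cannot exclude it. With the number as a block, Slc25a27, Slc25a29 and Slc25a39 lost their calls (adjusted p = 0.056, 0.059 and 0.058). Carriers below the median level give dim signals, in which differences are compressed.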
